A study of Mus musculus with 8 samples.

Results

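The clustered protocadherin locus of the mouse holds 3 arrays of genes, Pcdha, Pcdhb and Pcdhg, side by side on chromosome 18. All CTCF sites whose centre lies at chr18:37050000-38050000 (mm9) were taken as its sites, which gave 85 of the 104008 sites in the deposited table. By the annotated extent of the genes, 20 of them lie in the Pcdha cluster, 29 in the Pcdhb cluster, 24 in the Pcdhg cluster and 12 outside the clusters.

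The CTCF ChIP-seq was done in 1 line of immortalised embryonic mouse fibroblasts (iMEF), homozygous for a floxed Ash2l allele and carrying a Cre recombinase fused to an estrogen receptor domain (Cre-ER). The +HOT cells received 5 nM 4-hydroxytamoxifen (HOT) and were collected at day 7, when Cre-ER had removed exon 4 of Ash2l. The -HOT cells have the same genotype, received the ethanol vehicle and were collected on the same day. There were 2 CTCF libraries per condition, R1 and R3 in the table, which the study treats as technical replicates, and 4 input samples were not analysed here. The cells had been immortalised by a short hairpin RNA against p19Arf, and HOT-treated cells of this line stop dividing, so that loss of Ash2l, the compound itself and the halted growth cannot be told apart in this comparison.

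Ash2l belongs to the core of the KMT2 enzymes, which methylate lysine 4 of histone H3, and CTCF is a zinc finger protein that binds insulators and the anchors of chromatin loops. Clustered protocadherins are cell adhesion molecules of the cadherin superfamily, known best from neurons, where each cell uses its own combination of them to tell its own branches from those of other cells. Each of the variable exons of Pcdha and Pcdhg carries its own promoter and is spliced to constant exons shared by its array, whereas each Pcdhb gene is a single exon. CTCF is known to bind a conserved element in most of these promoters and, in Pcdha, also a second element inside the exon, and loops from there to enhancers with CTCF motifs of the opposite orientation decide which promoter is used.

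All 85 sites passed the filter on low counts. Reads per site in the locus ran from 12 to 464 and from 15 to 368 in +HOT R1 and R3, and from 5 to 270 and from 4 to 205 in -HOT R1 and R3. The libraries held 9280701 and 7653295 reads in sites for +HOT, against 4221752 and 3126722 for -HOT, so the -HOT values carry the larger counting error. All levels below are normalised reads, that is, reads of a site scaled to a common library size. Changes are log2 fold changes (log2FC) of +HOT over -HOT. The calls gained and lost need an adjusted p under 0.05 and a log2FC over 1 or under -1, taken from edgeR's quasi-likelihood test of 99560 sites genome-wide. With 2 libraries per condition from 1 line, these p-values measure the spread between libraries only, and in bulk chromatin binding in more cells and stronger binding per cell cannot be told apart.

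CTCF binding was higher in +HOT cells across the Pcdhb array. In the whole locus 15 sites were gained and 0 were lost. Among all tested sites, 3.90% were gained and 1.50% were lost. The gained sites comprised 13 of 29 sites in the Pcdhb cluster and 2 of 20 in the Pcdha cluster, while 0 of 24 sites in the Pcdhg cluster and 0 of 12 outside the clusters were gained. These counts of 0 were also 0 in DESeq2 and, at the same fold, with an unadjusted p under 0.05 in edgeR. At that unadjusted p and any fold, 7 sites of the locus were lower in +HOT, and 5 sites in Pcdhg and 2 outside the clusters were higher. Without the fold threshold, 31 sites of the locus were higher in +HOT, against a background of 9.45%, and 5 were lower, against a background of 9.08%. These were 22 higher and 0 lower sites in Pcdhb, 5 and 0 in Pcdha, 3 and 3 in Pcdhg, and 1 and 2 outside the clusters. The median log2FC was 1.00 in Pcdhb, 0.45 in Pcdha, 0.20 in Pcdhg and -0.19 outside the clusters, beside 0.01 over all tested sites. Sites of chromosome 18 outside the locus had a median of 0.02.

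**Figure D1:**
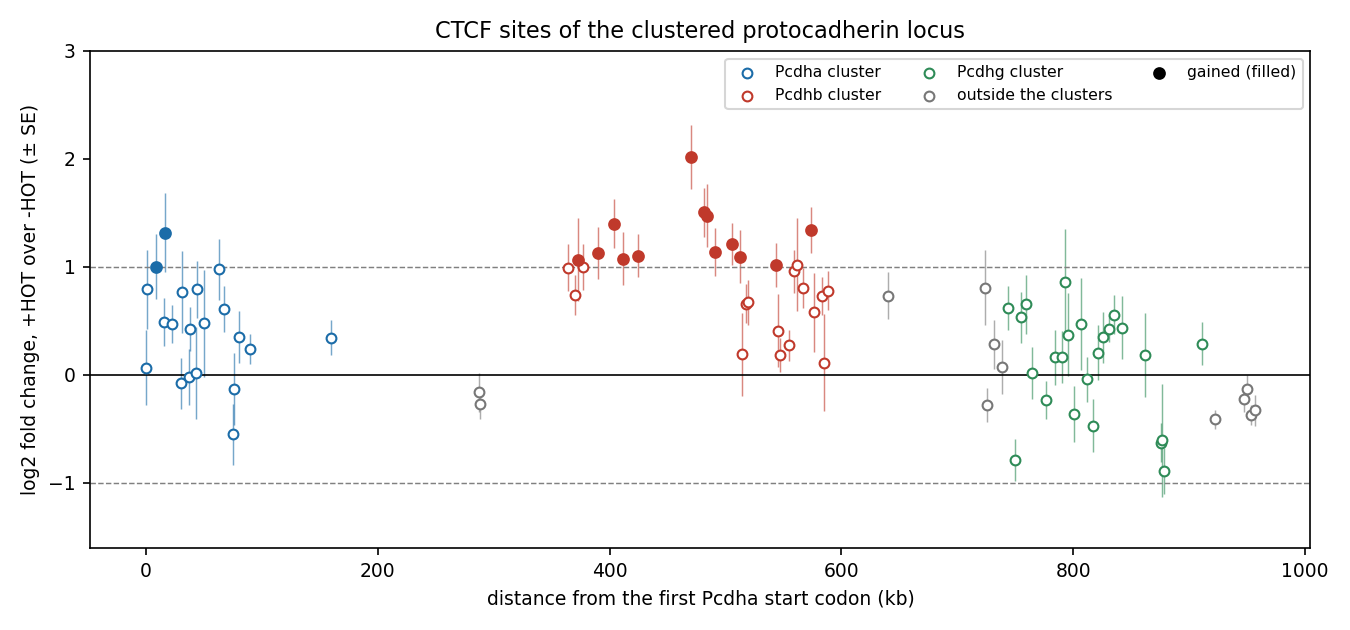
Log2 fold change of +HOT over -HOT (± SE) for each of the 85 CTCF sites, against its distance in kb from the first Pcdha start codon; colours mark the clusters, filled points are gained sites and dashed lines mark a log2FC of 1 and -1. All 13 gained Pcdhb sites form a block in the middle of the locus, 2 gained Pcdha sites lie at its left end, and the Pcdhg sites scatter around 0 between -0.89 and 0.86.

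The share of reads gives the same comparison, scaled only by the total site reads of each library. In the fit of single sites, total counts as the scaling gave a median log2FC of 1.05 in Pcdhb, against 1.00 in the main fit. Sites of the Pcdhb cluster took 0.0407% and 0.0406% of all site reads in the +HOT libraries, against 0.0217% and 0.0207% in the -HOT libraries, a ratio of 1.92. For the Pcdha cluster the shares were 0.0191% and 0.0194% in +HOT and 0.0147% and 0.0135% in -HOT. Both arrays took a larger share in each +HOT library than in either -HOT library. This also held for the Pcdhg cluster, by less. It took 0.0224% and 0.0233% in +HOT, against 0.0208% and 0.0213% in -HOT, a ratio of 1.08. Sites outside the clusters went the other way, with 0.0271% and 0.0253% in +HOT and 0.0300% and 0.0290% in -HOT. For the whole locus the share averaged 0.109% ± 0.00050 in +HOT and 0.0859% ± 0.0020 in -HOT (SD, n = 2 each). Within a library, Pcdhb sites held 1.82 and 1.75 times the reads of Pcdhg sites in +HOT, against 1.04 and 0.97 times in -HOT. They held 2.13 and 2.09 times the reads of Pcdha sites in +HOT, against 1.47 and 1.53 times in -HOT. Each of these comparisons separated the groups and gave p = 0.333 in the two-sided exact permutation test, the smallest value that 2 libraries against 2 allow.

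**Figure D2:**
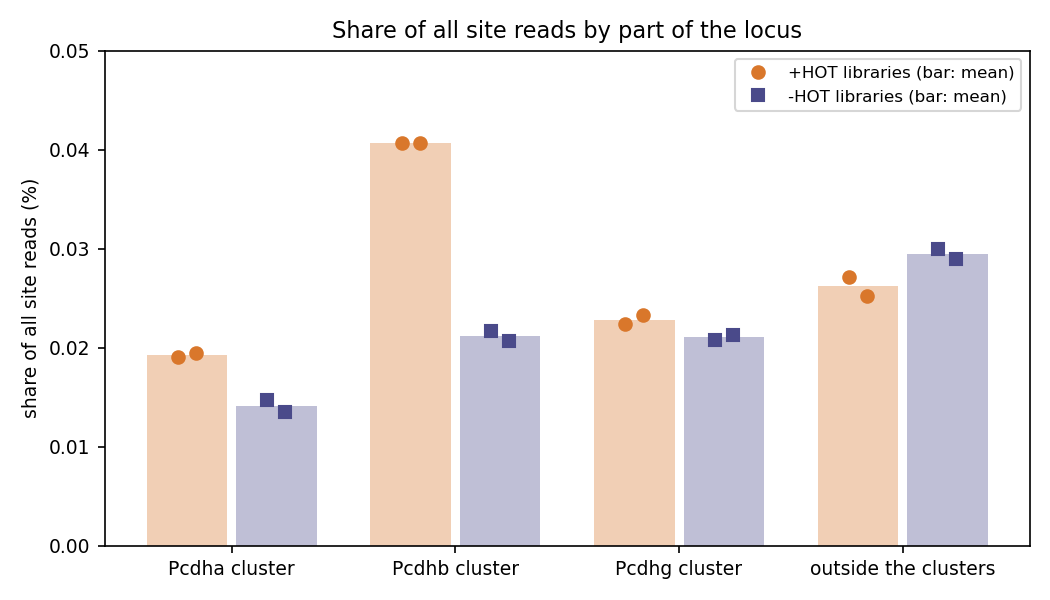
Share of all site reads, in percent, that fell in each part of the locus; points are single libraries, bars their mean, +HOT to the left of -HOT. The Pcdhb cluster stands at 0.0407% in +HOT, against 0.0212% in -HOT, while the Pcdhg cluster stands at 0.0228% in +HOT and 0.0211% in -HOT.

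The variable exons were located as open reading frames of at least 2000 bp on the plus strand of the reference, since the annotation of this build gives only part of their starts. This yielded 61 frames, of which 58 were taken as exons, 14 for Pcdha, 22 for Pcdhb and 22 for Pcdhg. Of 24 frames in Pcdhb, only the 22 at annotated Pcdhb genes were kept. In Pcdha and Pcdhg, frames without an annotated start were kept as well, 4 and 14 of them. The Pcdhg exons include 2 before the annotated cluster, taken in by their length. In Pcdhb the annotation names every gene. In Pcdha and Pcdhg, where it names most transcripts after a single gene, the exons are numbered here by their order along the chromosome. A CTCF site lay within 500 bp upstream of the start codon at 10 of 14 Pcdha exons, 21 of 22 Pcdhb exons and 20 of 22 Pcdhg exons, and a site had its centre inside the exon at 9, 8 and 1 of them. Only 4 of the 58 exons had neither, namely alpha exon 14, Pcdhb1, and gamma exons 21 and 22. The last Pcdha exon, Pcdhb1 and the last exons of Pcdhg are known to lack the conserved promoter element that CTCF binds.

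Sites upstream of the Pcdhb exons changed together. All 21 had a positive log2FC, with a median of 1.02 and a range from 0.19 to 2.02. In all 21 both +HOT libraries lay above both -HOT libraries, at Pcdhb16 by less than the rounding of the values given, which held for 29.6% of all tested sites. Of these sites 19 were higher in +HOT at an adjusted p below 0.05, against 9.45% of all tested sites, and 11 were gained. Across all tested promoter sites, those within 3000 bp of an annotated start, 1.29% were gained. Among all 27248 tested sites with mean reads in the same range as these 21 (42.3 to 133), 5.00% were gained. Of those sites, 5723 were higher in +HOT at an adjusted p below 0.05. Both +HOT libraries lay above both -HOT libraries at 12494 of them, and their median log2FC was 0.17.

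Pcdhb9 had the largest change of the locus. Its upstream site at chr18:37560238-37560654 had 74.2 and 62.4 normalised reads in +HOT, against 20.6 and 11.9 in -HOT (log2FC 2.02 ± 0.30 SE, adjusted p = 8.6e-07). The raw counts behind these levels were 114 and 80 in +HOT and 14 and 6 in -HOT, so that the -HOT level rests on few reads. Its neighbour Pcdhb10, at chr18:37571020-37571590, had 102 and 99.8 in +HOT, against 44.1 and 23.9 in -HOT (log2FC 1.50 ± 0.23, adjusted p = 1.3e-06). The Pcdhb6 site at chr18:37493210-37493660 had 94.4 and 98.3 in +HOT and 38.3 and 33.8 in -HOT (log2FC 1.40 ± 0.22, adjusted p = 3.6e-06). At each of these genes the groups were well apart.

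The Pcdhb20 site at chr18:37663657-37664071 had 96.4 and 111 normalised reads in +HOT, against 42.7 and 37.8 in -HOT (log2FC 1.34 ± 0.21, adjusted p = 4.1e-06). Pcdhb20 is listed as a pseudogene in the annotation used, although its open reading frame spans 2400 bp. Upstream of Pcdhb12, at chr18:37594982-37595750, there were 111 and 121 in +HOT, against 44.1 and 57.7 in -HOT (log2FC 1.21 ± 0.20, adjusted p = 6.1e-06). Pcdhb11, at chr18:37580831-37581603, had 91.2 and 95.2 in +HOT, against 50.0 and 31.9 in -HOT (log2FC 1.14 ± 0.22). Both of these sites are wide and reach over the start codon into the exon.

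Smaller gains were seen upstream of Pcdhb5, Pcdhb7, Pcdhb8, Pcdhb13 and Pcdhb15. Pcdhb5 (chr18:37479809-37480199) had 71.6 and 77.2 in +HOT, against 33.8 in each -HOT library (log2FC 1.13 ± 0.24). Pcdhb8 (chr18:37514510-37515058) had 109 and 101 in +HOT, against 45.6 and 53.7 in -HOT (log2FC 1.10 ± 0.20). The replicates were tight at both sites. Pcdhb13 (chr18:37601747-37602280) had 94.4 and 63.2 in +HOT, against 29.4 and 47.8 in -HOT (log2FC 1.10 ± 0.25), and Pcdhb7 (chr18:37501041-37501551) had 64.5 and 99.1 in +HOT, against 30.9 and 47.8 in -HOT (log2FC 1.08 ± 0.24). At both of these the libraries of a condition spread widely without an overlap of the groups. Pcdhb15 (chr18:37632902-37633375) had 107 and 102 in +HOT, against 41.2 and 65.7 in -HOT (log2FC 1.02 ± 0.20, adjusted p = 1.6e-04). Without -HOT R1 the sites of Pcdhb7, Pcdhb13 and Pcdhb15 did not pass, with log2FC values of 0.74, 0.73 and 0.67.

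The fold threshold runs through the middle of this array. Pcdhb15 was the weakest upstream site inside it. Just outside it, at adjusted p of 4.9e-04, 5.7e-04 and 2.7e-04, were Pcdhb4 with a log2FC of 1.00 (0.998 before rounding), Pcdhb2 with 0.99 and Pcdhb18 with 0.96. A further 5 upstream sites were higher in +HOT by less, with a log2FC of 0.81 at Pcdhb19, 0.78 at Pcdhb22, 0.74 at Pcdhb3, 0.73 at Pcdhb21 and 0.66 at Pcdhb14. The value of Pcdhb21 was 0.40 without -HOT R3 (adjusted p = 0.18) and 1.29 without -HOT R1. The sites of Pcdhb16 and Pcdhb17 did not pass the test. Pcdhb16 had 119 and 123 normalised reads in +HOT, against 119 and 89.6 in -HOT (log2FC 0.19 ± 0.16, adjusted p = 0.47). Pcdhb17 had 146 and 144 in +HOT, against 121 and 119 in -HOT (log2FC 0.27 ± 0.14, adjusted p = 0.19). These adjoining genes had the highest -HOT levels of the 21.

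Levels at the Pcdhb promoters were more even in +HOT than in -HOT cells. Mean normalised reads over the 21 upstream sites ran from 68.3 (Pcdhb9) to 145 (Pcdhb17) in +HOT, with a median of 104, a span of 2.12-fold. In -HOT they ran from 16.3 (Pcdhb9) to 120 (Pcdhb17), with a median of 49.7, a span of 7.38-fold. The SD of the log2 levels over these sites was 0.27 in +HOT and 0.63 in -HOT. Over the 20 Pcdhg upstream sites the same SD was 0.73 in +HOT and 0.82 in -HOT, and over the 10 Pcdha upstream sites 0.84 in +HOT and 0.71 in -HOT. The lower depth of the -HOT libraries adds counting noise to their spread, and its part in the difference was not tested.

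**Figure D3:**
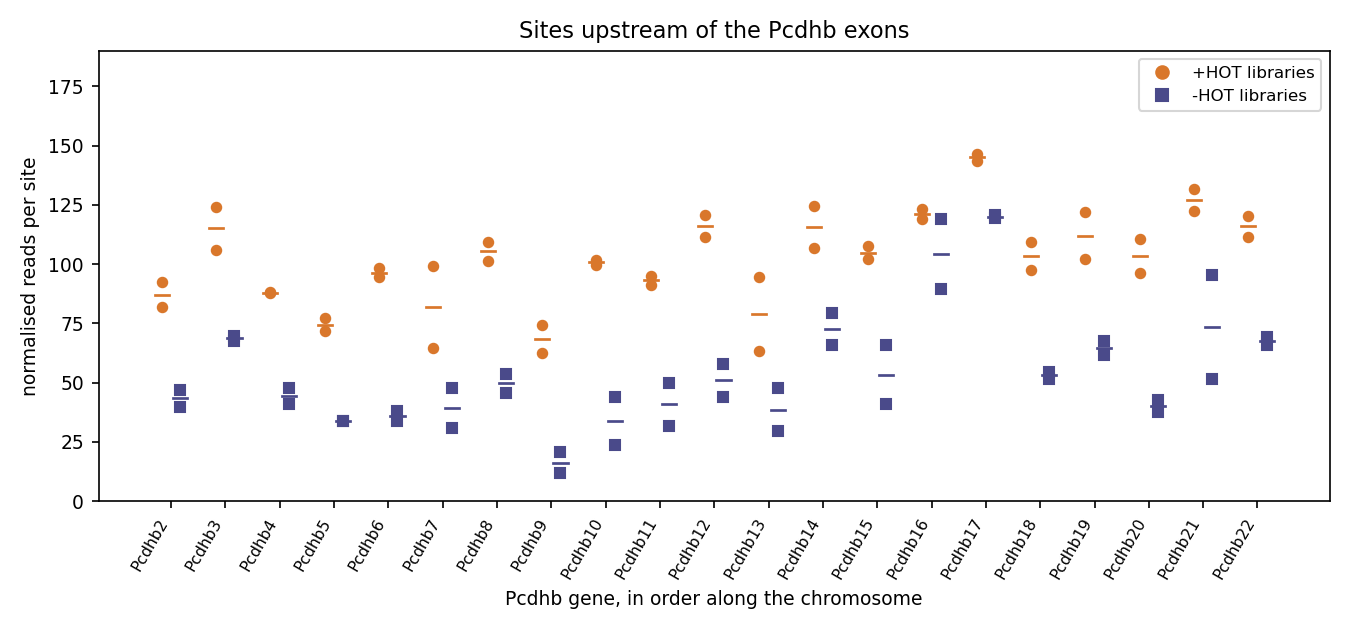
Normalised reads at the site upstream of each Pcdhb gene, in order along the chromosome; points are libraries, short lines their means, +HOT to the left of -HOT for each gene. The +HOT means lie between 68.3 and 145 and the -HOT means between 16.3 and 120, with the groups closest at Pcdhb16 and Pcdhb17.

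A second kind of site lay inside 8 Pcdhb exons, with its centre 1439 to 2231 bp after the start codon. All 8 had a positive log2FC, with a median of 0.62. Of the 8, 3 were higher in +HOT at an adjusted p below 0.05 and 2 were gained, against 9.45% and 3.90% of all tested sites. These sites were weak, with a median of 28.1 normalised reads in +HOT and 18.4 in -HOT. The exception was Pcdhb14 (chr18:37609296-37609937), with 78.8 and 88.9 in +HOT, against 57.4 and 45.8 in -HOT (log2FC 0.67 ± 0.21, adjusted p = 0.017). The Pcdhb10 exon (chr18:37573511-37574005) had 52.1 and 67.1 in +HOT, against 17.7 and 25.9 in -HOT, and was gained (log2FC 1.48 ± 0.29, adjusted p = 1.6e-04). Its change was close in size to that of the promoter of the same gene. The Pcdhb3 exon (chr18:37462686-37463034) had 26.7 and 30.4 in +HOT, against 14.7 and 11.9 in -HOT (log2FC 1.07 ± 0.39, adjusted p = 0.042). Of these 3 sites that passed, those of Pcdhb14 and Pcdhb3 did not pass without -HOT R1, -HOT R3 or +HOT R3. At Pcdhb13 the exon site had a log2FC of 0.19 ± 0.39, although its promoter site was gained. Within each library, reads in exon sites came to 0.13 and 0.14 times those in Pcdhb upstream sites in +HOT, and to 0.15 times in both -HOT libraries.

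In Pcdha, sites inside the exons had the larger median change. At 6 exons both kinds were present. The 10 upstream sites had a median log2FC of 0.21, with 2 higher in +HOT at an adjusted p below 0.05 and 1 gained. The 9 sites inside exons had a median of 0.77, with 3 higher and 1 gained. Among all tested sites 9.45% were higher and 3.90% gained. With so few sites, 1 gained site in each group is near that background. No Pcdha site was lower at that threshold. Reads in exon sites came to 1.10 times those in upstream sites in each +HOT library, against 0.96 and 0.91 times in -HOT (exact permutation p = 0.333, the smallest possible). The wide sites at alpha exons 4 and 12 count as exon sites by their centre, although they begin before the start codon. They were the strongest of the exon sites, with 162 and 284 raw reads in +HOT R1. The ratio therefore mixes exon and promoter signal, and it was not computed without them.

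The gained exon site of Pcdha was in alpha exon 3 (chr18:37106172-37106539), with 30.0 and 42.9 normalised reads in +HOT, against 14.7 and 13.9 in -HOT (log2FC 1.32 ± 0.37, adjusted p = 0.0067). Its upstream partner had 69.7 and 70.2 in +HOT, against 54.4 and 43.8 in -HOT, and did not pass (log2FC 0.49 ± 0.22, adjusted p = 0.12). This promoter site was the stronger of the pair and had the smaller log2FC, a difference that was not tested for single exons. The gained upstream site was that of alpha exon 2 (chr18:37098601-37099032), with 44.9 and 46.8 in +HOT, against 25.01 and 19.9 in -HOT (log2FC 1.00 ± 0.30, adjusted p = 0.013), and it lies at the edge of the fold threshold. This call was lost in 9 of the 12 alternative fits, and that of alpha exon 3 in 3 of them. Among the rest, alpha exon 8 (0.98 ± 0.28, within the exon), alpha exon 7 (0.79 ± 0.26, within the exon) and alpha exon 9 (0.61 ± 0.21, upstream) were higher in +HOT at an adjusted p below 0.05. At alpha exon 7 the upstream site had a log2FC of 0.02 ± 0.43. These exon sites rest on single libraries: alpha exon 8 had a log2FC of 0.56 without -HOT R3 (adjusted p = 0.28) and 1.77 without -HOT R1, and alpha exon 7 had 0.42 without -HOT R1 (adjusted p = 0.51) and 0.44 without +HOT R1 (adjusted p = 0.34). Alpha exon 9 had 0.41 without -HOT R3 (adjusted p = 0.33).

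None of the 3 strongest Pcdha sites passed the test. The wide site over the start of alpha exon 12 had 185 and 142 normalised reads in +HOT, against 152 and 123 in -HOT (log2FC 0.24 ± 0.14). At alpha exon 4 a similar wide site had 106 and 113 in +HOT, against 75.02 and 83.6 in -HOT (log2FC 0.47 ± 0.18, adjusted p = 0.051). Alpha exons 13 and 14 are the C-type exons, which are known to be expressed more evenly among neurons than the other variable exons. The site upstream of alpha exon 13 (chr18:37249252-37249808) had 118 and 129 in +HOT, against 102 and 91.6 in -HOT (log2FC 0.35 ± 0.16, adjusted p = 0.13). At alpha exons 4 and 13 the groups did not overlap.

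In Pcdhg the log2FC values had both signs, and few sites passed the test. All 20 upstream sites, including 2 at exons that lie before the annotated start of the cluster, had a median log2FC of 0.19, with 14 positive and 6 negative values. At an adjusted p below 0.05, 3 were higher and 2 lower in +HOT. Over all tested sites 9.45% were higher and 9.08% lower, so these counts are near the background. The strongest, upstream of gamma exon 18 (chr18:37920844-37921555), had 188.9 and 189.5 normalised reads in +HOT, against 138 and 143 in -HOT (log2FC 0.43 ± 0.13, adjusted p = 0.012). Gamma exon 19 had 107 and 105 in +HOT, against 78.0 and 63.7 in -HOT (log2FC 0.56 ± 0.18, adjusted p = 0.023), and gamma exon 3, the first annotated one, had 97.0 and 88.1 in +HOT, against 45.6 and 79.6 in -HOT (log2FC 0.62 ± 0.20, adjusted p = 0.023). The second-strongest upstream site by mean reads, at gamma exon 8, had 93.1 and 78.8 in +HOT, against 98.6 and 106 in -HOT, and did not pass (log2FC -0.23 ± 0.17). Gamma exon 3 had a log2FC of 0.21 without -HOT R1 (adjusted p = 0.72) and 1.01 without -HOT R3. No higher Pcdhg site passed the test without each library in turn.

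Binding at gamma exons 4 and 20 was lower in +HOT. Upstream of gamma exon 4 (chr18:37839693-37840149) there were 49.5 and 77.2 normalised reads in +HOT, against 103 and 114 in -HOT (log2FC -0.79 ± 0.19, adjusted p = 0.0020). This exon sits next to gamma exon 3, where the change had the opposite sign. Without +HOT R1 its log2FC was -0.47 (adjusted p = 0.11). Gamma exon 20 is the first of the 3 C-type exons of the array. Its upstream site (chr18:37965766-37966191) had 65.8 and 67.1 in +HOT, against 95.6 and 112 in -HOT (log2FC -0.63 ± 0.18, adjusted p = 0.010). A site near the end of the same exon (chr18:37968398-37968807) had 41.0 and 46.8 in +HOT, against 83.9 and 77.6 in -HOT (log2FC -0.89 ± 0.22, adjusted p = 0.0017). A weak site between them had 7.8 and 12.5 in +HOT, against 14.7 and 15.9 in -HOT, and did not pass (log2FC -0.60 ± 0.52). All 3 sites of this exon had lower values in each +HOT library than in either -HOT library, and none reached the fold threshold. The site near the end had an adjusted p of 0.060 without -HOT R1, and the upstream site one of 0.12 without -HOT R3.

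**Figure D4:**
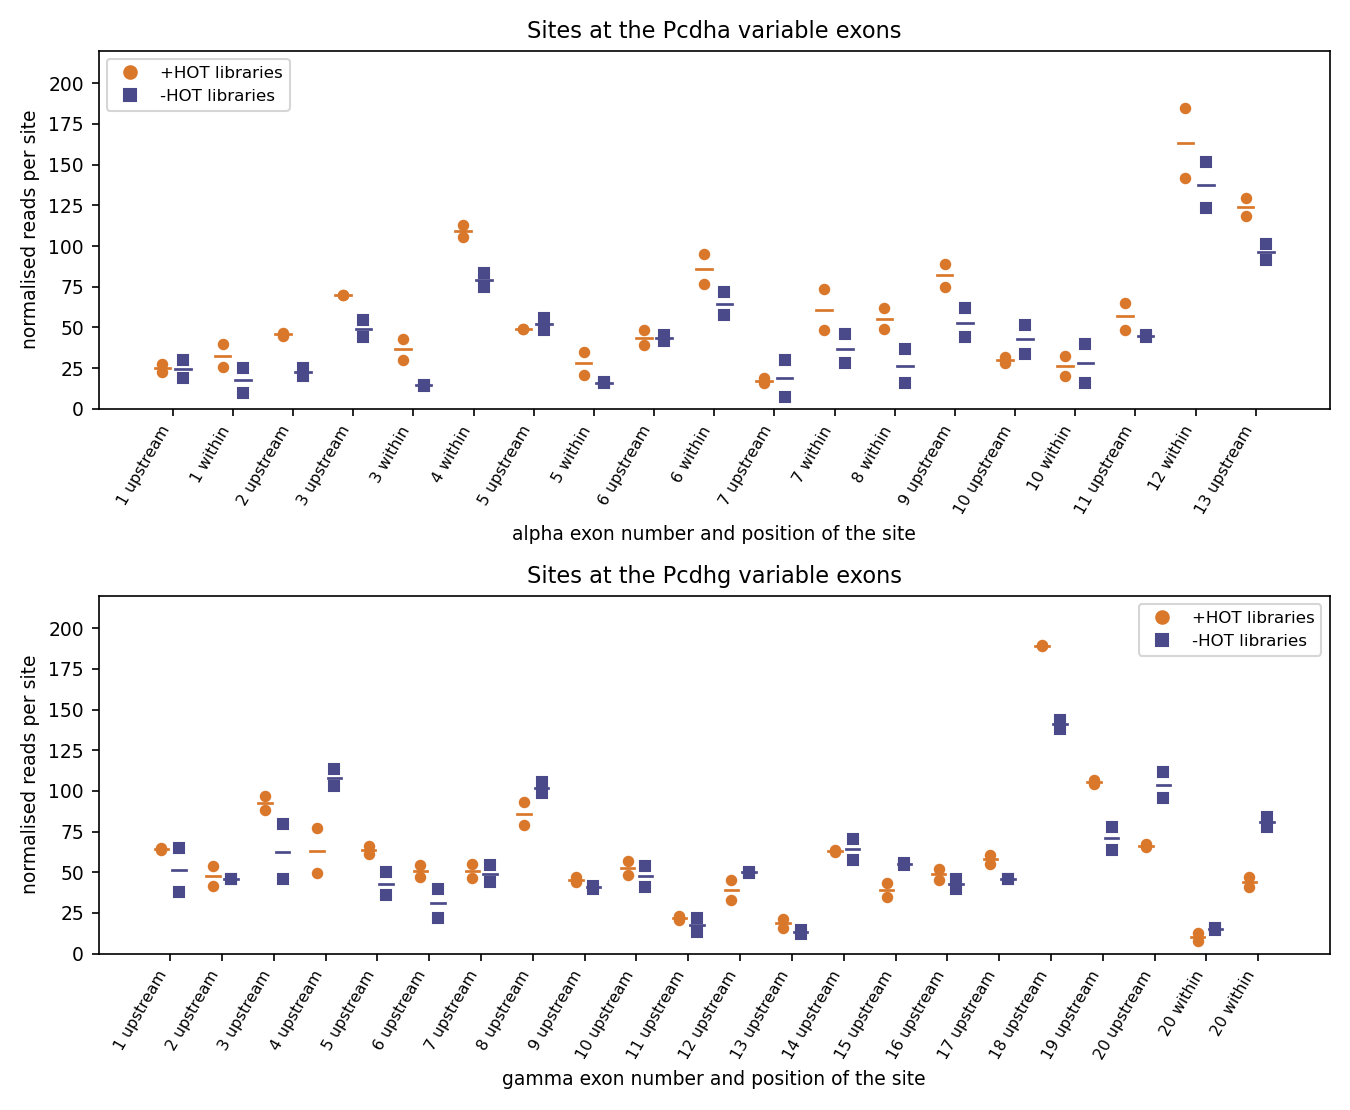
Normalised reads at the sites of the Pcdha (top) and Pcdhg (bottom) variable exons, numbered along the chromosome; points are libraries, short lines their means, +HOT to the left of -HOT. Pcdha exon sites tend to lie higher in +HOT, whereas gamma exon 4 and the 3 sites of gamma exon 20 lie lower in +HOT.

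Outside the clusters, 5 strong sites lay in or near Diap1, the formin gene that follows Pcdhg and promotes actin filament assembly. All 5 had a negative log2FC, with a median of -0.33. A further site whose nearest start is that of Diap1, at chr18:38000881-38001415, lies inside the annotated Pcdhg extent and is counted there. It had a positive log2FC and did not pass (0.29 ± 0.20, adjusted p = 0.34). The site at chr18:38011723-38012498 had 298 and 287 normalised reads in +HOT, against 397 and 380 in -HOT (log2FC -0.41 ± 0.09, adjusted p = 4.7e-04). The site at chr18:38042960-38043661 had 302 and 287 in +HOT, against 362 and 408 in -HOT (log2FC -0.37 ± 0.09, adjusted p = 0.0017). These directions depend on the scaling: with a scaling that follows site strength their log2FC was 0.07 and 0.11. With it, 4 of the 5 Diap1 sites outside the clusters had a positive value. The site at chr18:38036870-38037561 had 193 and 158 in +HOT, against 231 and 173 in -HOT, and did not pass (log2FC -0.22 ± 0.12). Downstream of Pcdha, on the side where a known enhancer of that array lies, 2 sites had a log2FC of -0.16 ± 0.18 and -0.27 ± 0.13. A site between Pcdhb and Pcdhg (chr18:37730118-37730547) had 77.5 and 77.2 in +HOT, against 50.0 and 41.8 in -HOT, and was higher in +HOT (log2FC 0.73 ± 0.22, adjusted p = 0.012), though not without -HOT R1 (adjusted p = 0.063) or -HOT R3 (adjusted p = 0.12). None of the files used here annotates enhancers, so these sites are given by position only.

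The sites of the 3 arrays differed in features that played no part in their choice. Matches to CTCF's motif were sought with a 20-position matrix, derived from the strongest sites of the genome around the seed AGGNGGC, on both strands of the central 300 bp of each site. The score needed for a match was set so that 5% of shuffled windows passed. It matched 84.4% of all tested sites, whose median score was 13.38. Upstream sites scored lower, with medians of 5.82 in Pcdhb, 6.98 in Pcdha and 0.13 in Pcdhg, so that many matches there are weak. Upstream of the exons it matched 16 of 21 Pcdhb sites, 7 of 10 Pcdha sites and 4 of 20 Pcdhg sites. These matches lay on the strand of the exons in all but 1 case, the Pcdhb12 site, whose score was only 4.83. Inside the exons the matches split by array, with 7 of 8 on the exon strand in Pcdha and 6 of 6 on the other strand in Pcdhb. All 8 matches at sites outside the clusters were on the other strand. A site without a match only lacks these letters in this window.

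Median GC content of the 500 bp at the centre was 40.6% at Pcdhb upstream sites, 44.5% at Pcdhg upstream sites and 44.0% over all sites. Over the 21 Pcdhb upstream sites, log2FC had a Pearson r of -0.24 with GC content and of -0.22 with the match score. With the mean reads of the site r was -0.86, a value in part built in, since the -HOT level enters both measures. These are descriptions over sites that share the same 4 libraries. Related exons can also share reads. Of the 85 sites, 73 held no stretch of 75 bp, the read length, that recurs elsewhere in the locus, and in the other 12 at most 26.7% of positions started such a stretch.

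**Figure D5:**
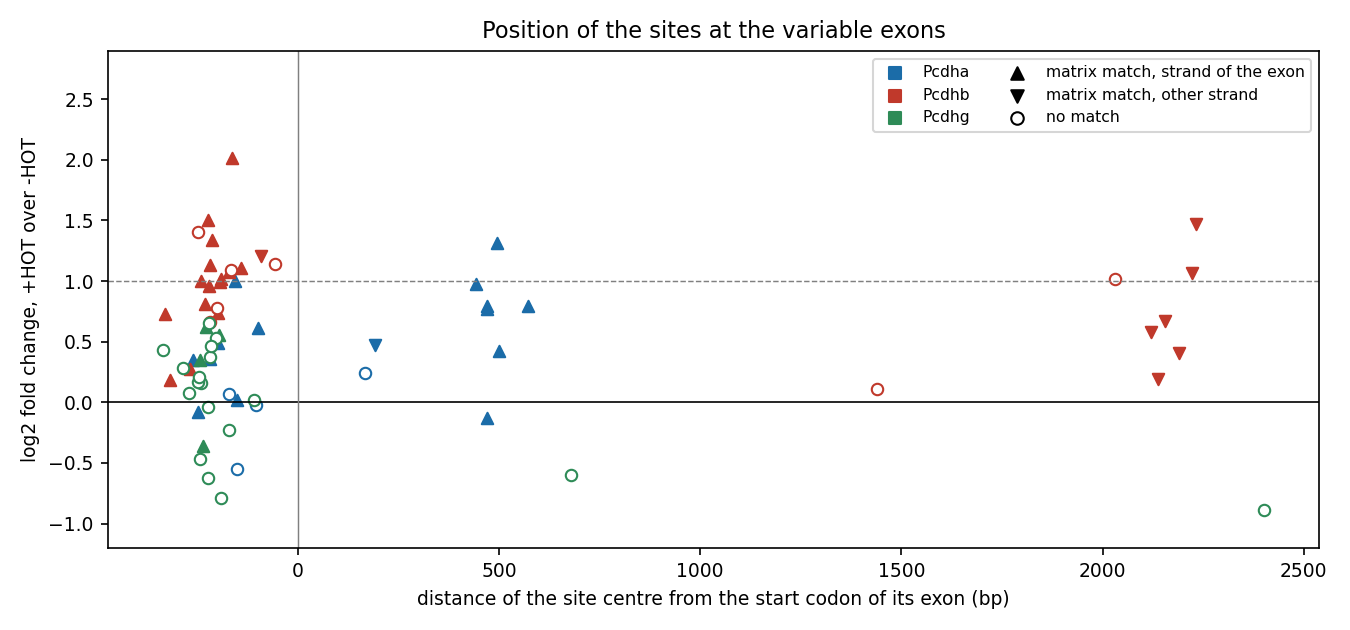
Log2 fold change of each site at a variable exon against the distance of its centre from the start codon in bp; upward triangles have a matrix match on the strand of the exon, downward triangles on the other strand, open circles no match, and the dashed line marks a log2FC of 1. Pcdhb sites form one group 56 to 330 bp before the start codon and another near the end of the exon, with matches on opposite strands.

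Of 12 protocadherin genes that lie singly in the genome, such as Pcdh1, Pcdh9 and Pcdh19, 10 had promoter sites, 17 in all, of which 0 were gained in edgeR or DESeq2, or at an unadjusted p under 0.05 with the same fold, and 1, at Pcdh19, was lost in edgeR. At an adjusted p below 0.05, 3 were higher and 4 lower in +HOT, and the median log2FC of the 17 was -0.11. Among all 17077 tested promoter sites, 602 were higher, 4096 lower, 221 gained and 1026 lost. With 17 sites, 0 gained and 1 lost are near that background. All tested promoter sites of the genome had a median of -0.28, whereas the 52 sites of the locus within 3000 bp of an annotated start had a median of 0.67, with 14 gained.

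The calls at single sites depend on the scaling and on the libraries. When the scaling followed site strength, so that the typical change was set near 0 at every level of reads, 7 sites of the locus were gained, 6 of them in Pcdhb. The site near the end of gamma exon 20 was then lost (log2FC -1.12). In DESeq2 11 sites were gained, all in Pcdhb, and with total counts as the scaling there were 19. Leaving out -HOT R1 left 10 gained sites, and leaving out any other library between 14 and 17. The count of gained Pcdha sites was 5 without +HOT R1. It was 1 without -HOT R1, where alpha exon 8 was called, and 1 without +HOT R3, where alpha exon 7 was called, and in both fits alpha exons 2 and 3 lost their call. Both lost it in DESeq2 as well. Without +HOT R3, gamma exon 4 gave 1 lost site, and without -HOT R3, gamma exon 3 gave 1 gained site, while each failed the test without another library. Of the sites past an adjusted p of 0.05, 13 of 22 in Pcdhb, 0 of 5 in Pcdha and 0 of 6 in Pcdhg stayed past it without each library in turn. Called in every one of the 12 alternative fits were the upstream sites of Pcdhb6, Pcdhb9, Pcdhb10 and Pcdhb20 and the exon site of Pcdhb10. Over these fits the median log2FC ran from 0.74 to 1.05 in Pcdhb, from 0.35 to 0.50 in Pcdha, from 0.01 to 0.31 in Pcdhg and from -0.29 to 0.04 outside the clusters. A positive sign was kept in all of them by 28 of the 29 Pcdhb sites, the exception being the weak exon site of Pcdhb21.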

How the data were processed

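The deposited table holds, per the file headers, raw read counts per site for 4 CTCF libraries, beside normalised values. Reads were single-end of 75 cycles. According to the study's methods they were mapped to mm9, duplicates and blacklisted regions were removed, and narrow peaks were called. BWA, MACS2, SAMtools, DESeq2 and deepTools appear in the submitters' processing notes, with versions not given in the sources used here. Of 8 columns of values per library the 4 of counts were used and 4 normalised ones were not. Columns of the authors' fold changes and p-values and their lists of gained and lost sites were not used.

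Counts were tested with edgeR 4.0.16 in R 4.3.3 (TMM, filterByExpr with a minimum count of 10, robust quasi-likelihood fit, Benjamini-Hochberg over 99560 sites), +HOT against -HOT. The SE is the absolute log2FC over the square root of F. To obtain normalised reads, each count was divided by its library's effective size and multiplied by the mean of these sizes. Libraries held 3126722 to 9280701 site reads. In a chi-square test between libraries of a condition, the statistic per degree of freedom was 1.41 for +HOT and 1.09 for -HOT, above sampling noise alone. This test cannot tell technical replicates from separate cultures. Each library was entered separately, as in the study's own test. The study calls them technical replicates, and whether they come from separate cultures is not stated. The table numbers libraries R1 and R3 and the titles number them otherwise, so columns were matched to conditions only. Sites were placed by their centre on NCBIM37 (mm9) with GENCODE vM1; coordinates are as in the table. A cluster runs from 3000 bp before its first annotated start to its last gene end.

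The locus, gene lists and tests were chosen with earlier results of these data known. Sites named by rule were all called ones, the 3 strongest by mean reads in each cluster and outside, and those within 500 bp of C-type starts; the others were chosen after their values were seen. The test was checked on simulated counts. Alternatives were DESeq2 1.42.0, other scalings (along site strength, also with GC content), count filters, fold thresholds and promoter windows, a replicate block, and leaving out each library; an extended Pcdhg cluster was added after seeing the data. No sequence of the locus is printed.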

Additional observations from a re-analysis of the deposited data

How the results depend on the processing

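The median log2FC of the locus as a whole stayed positive in every alternative fit, while counts of calls moved with the scaling. Its parts were less steady. The median outside the clusters (-0.19) was 0.04 with scaling along site strength and 0.01 with GC content as well. That of Pcdhg (0.20) was 0.04 and 0.01. Across the genome, against 3878 gained and 1491 lost sites, scaling along site strength gave 2271 gained sites, the same with GC content 2094, DESeq2 1682 gained and 719 lost, and no fold threshold 9413 gained and 9036 lost. At the locus, scaling along site strength, with or without GC content, gave 7 gained sites and 1 lost site, and dropping the fold threshold 31 and 5. The Pcdha count (2) became 1 with DESeq2 size factors, both strength scalings, no count filter and a mean of at least 20 counts, 0 in DESeq2 and 5 with no fold threshold; Pcdhb (13) became 6 with both strength scalings and 22 with no fold threshold; Pcdhg (0) became 3 with no fold threshold and stayed at 0 with the extended cluster. The 11 gained Pcdhb upstream sites became 5 and 19, and the 14 gained promoter sites 6 and 26, under the strength scalings and with no fold threshold; windows of 1000 and 500 bp gave 12 and 11 gained among 42 and 39 promoter sites. The median log2FC of the locus (0.44) was 0.42 with DESeq2 size factors, 0.49 with total counts and 0.36 with both strength scalings. Strength scaling turned both lower Diap1 sites, to log2FC values of 0.072 and 0.112, and to 0.0345 and 0.0793 with GC content. The cause of these shifts was not tested.

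Leaving out 1 library at a time, which leaves a lone library assumed to vary like the others, gave 2973 to 4631 gained and 1086 to 1792 lost sites in the genome, 10 to 17 gained and 0 to 1 lost sites at the locus, 1 to 5 in Pcdha, 9 to 13 in Pcdhb, 0 to 1 in Pcdhg, 8 to 12 gained Pcdhb upstream sites, 8 to 14 gained promoter sites, a median log2FC of 0.40 to 0.44 and a difference in the locus share of 0.0217 to 0.0245 percentage points (0.0231 with all libraries). The low count of 10 came without -HOT R1 and the 5 gained Pcdha sites without +HOT R1. The site gained in Pcdhg without -HOT R3 was that of gamma exon 3 (log2FC 1.01), and the site lost without +HOT R3 that of gamma exon 4 (log2FC -1.11). Same-numbered libraries did not deviate together (r = 0.03), and a replicate block gave 15 gained sites at the locus, 2 in Pcdha and 13 in Pcdhb. Of 336 values of named sites under the alternatives, 291 kept their call, 40 lost the call, 1 gained it and 4 turned. The 4 that turned were those of the lower Diap1 sites under the strength scalings. The Diap1 site at chr18:38036870-38037561 did not pass in the main fit. Its sign also turned, with both strength scalings and without -HOT R1, and is not among these 4. Depth limits single sites most in -HOT, where the median site of the locus held 31 and 23 reads.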
